A study of Mus musculus with 6 samples.

Results

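Ubiquitin-specific proteases (USPs) were examined in RAW264.7 cells, a mouse macrophage cell line, after exposure to drug-loaded nanoparticles. Genes were taken by symbol, as every row of the expression table named Usp followed by a digit, with Usp18 left out. This gave 55 genes of 22105, all annotated as protein coding in GENCODE M21 (GRCm38). Usp6nl was taken in by its symbol, although it encodes an activating protein for Rab GTPases and no protease, so counts are also given without it.

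The study sequenced mRNA from 6 libraries, 3 of cells given phosphate buffered saline (PBS) and 3 of cells given CM-PEG-PLGA@DOX/R848 nanoparticles, all harvested after 24 h. The particle dose corresponded to 2 µg/mL of DOX (doxorubicin, which damages DNA through topoisomerase II), together with R848 (resiquimod, which activates Toll-like receptors of the endosome). PEG and PLGA are polymers of the particle, and CM is not spelled out in the labels. No arm received DOX, R848 or the carrier alone, so their effects cannot be told apart, and the replicates are not said to be separate cultures, so every p-value below reflects the spread among these libraries alone, possibly a technical one.

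Ubiquitin is a small protein that activating, conjugating and ligating enzymes join to other proteins, singly or as chains, and that marks them for the proteasome or alters their partners and location. Deubiquitinases cut it off again, and the USPs, cysteine proteases with a shared catalytic fold, form the family with the most members among them. In macrophages they are known for acting on the signalling proteins below Toll-like and cytokine receptors, and in all cells for acting on p53, histones, DNA repair factors and endocytosed receptors.

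The promoters of 4 genes are shown because these genes head the changes described below, Usp11 and Usp35 among those that rose and Usp10 and Usp46 among those that fell. Each sequence is the 150 bases before the RefSeq start of the gene (GRCm38.p6), written 5′ to 3′ on the strand of the gene. Capitals mark matches, on either strand, to any of 10 short motifs: the GC box (GGGCGG), the CCAAT box (CCAAT), the TATA box (TATAAA), the ETS core (CCGGAAG), a cyclic AMP response element (TGACGTCA), an E-box (CACGTG), an AP-1 site (TGA, any base, then TCA), an interferon-stimulated response element (GAAA on each side of any 2 bases), a kB site (GGGA, any base, then TTTCC) and a YY1 site (AAGATGGC). Overlapping matches are merged in the capitals.
Usp11, chrX:20703759-20703908, plus strand: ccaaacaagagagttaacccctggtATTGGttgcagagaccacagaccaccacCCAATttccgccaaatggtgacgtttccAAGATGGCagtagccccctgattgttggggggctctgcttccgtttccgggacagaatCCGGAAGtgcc
Usp35, chr7:97332110-97332259, minus strand: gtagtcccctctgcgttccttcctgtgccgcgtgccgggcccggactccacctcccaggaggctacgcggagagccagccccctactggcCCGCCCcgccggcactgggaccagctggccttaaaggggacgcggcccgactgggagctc
Usp10, chr8:119910210-119910359, plus strand: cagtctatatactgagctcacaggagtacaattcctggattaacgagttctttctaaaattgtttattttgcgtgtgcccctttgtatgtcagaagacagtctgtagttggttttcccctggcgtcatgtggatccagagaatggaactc
Usp46, chr5:74068412-74068561, minus strand: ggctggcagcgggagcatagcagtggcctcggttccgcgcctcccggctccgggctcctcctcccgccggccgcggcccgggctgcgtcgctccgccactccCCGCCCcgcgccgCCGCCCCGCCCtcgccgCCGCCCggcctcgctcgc
The Usp11 stretch held 4 matches (2 CCAAT boxes, a YY1 site and an ETS core), the Usp35 stretch 1 GC box, the Usp46 stretch 4 GC boxes and the Usp10 stretch none of these letters. The base composition ran from 42.7% G and C at Usp10 to 84.0% at Usp46.

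Over a wider window of 300 bases around the RefSeq start, present for 43 of the 55 USP genes, a GC box was found at 62.8% of the USP genes and 38.2% of 27018 genes. It was found at 9 of 13 USP genes that rose and 7 of 9 that fell and had such a window. The kB site was found at 0 of the 43 USP genes, against 0.466% of all genes. At a share this low, 0 of 43 cannot set the family apart. The interferon-stimulated response element was found at 3 of 43, Usp17lc, Usp17ld and Usp49, against 3.99%. Usp14, Usp5, Usp39 and Usp1 were among the genes without such a window. These matches describe letters only, and binding was not measured.

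The upstream stretches of 4 Usp17l genes on chromosome 7 are shown. These genes were chosen because they were listed at 0 in every PBS library and above 0 in every nanoparticle library. Usp17le, with the same pattern, is left out because it had no RefSeq window. Each stretch is 110 bases, lies 6 to 85 bases before the RefSeq start, and has matches in capitals as above. The GENCODE starts differ for some of these genes. By GENCODE the Usp17lc stretch lies inside its gene (103415072 to 103419880). The Usp17lb stretch overlaps the first bases of its gene, which starts at 104842603 on the minus strand.
Usp17la, chr7:104856885-104856994, plus strand: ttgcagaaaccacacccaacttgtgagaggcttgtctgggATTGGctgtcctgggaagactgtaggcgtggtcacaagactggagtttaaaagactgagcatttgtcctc
Usp17lb, chr7:104842590-104842699, minus strand: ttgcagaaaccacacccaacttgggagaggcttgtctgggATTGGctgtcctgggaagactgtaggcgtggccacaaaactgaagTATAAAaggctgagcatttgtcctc
Usp17lc, chr7:103416523-103416632, plus strand: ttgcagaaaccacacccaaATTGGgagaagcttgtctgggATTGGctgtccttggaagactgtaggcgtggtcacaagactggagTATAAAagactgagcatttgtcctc
Usp17ld, chr7:103252591-103252700, minus strand: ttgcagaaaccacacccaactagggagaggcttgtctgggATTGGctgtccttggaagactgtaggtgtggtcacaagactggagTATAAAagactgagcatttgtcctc
Any pair of these stretches was identical at 93.6% to 96.4% of positions. The stretches begin and end on the same letters although their distances from the RefSeq start differ. The identity therefore describes matched stretches, and that of the whole upstream regions was not measured. All 4 held a CCAAT box, and 3 of the 4, all but Usp17la, held a TATA box.

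Values are FPKM, fragments scaled to the length of the transcript and to the size of the library. PBS libraries listed 12678 to 12872 genes above 0 and nanoparticle libraries 15723 to 15989, and the sources used here do not give the number of sequenced fragments. All 10 macrophage markers were above 0 in all 6 libraries, with a sum of 3406 to 3545 FPKM in PBS and 1475 to 1567 FPKM in nanoparticle libraries. The markers did not move one way: Lyz2, Cd14, Csf1r, Cd68, Ptprc and Itgam were lower in every nanoparticle library than in any PBS library, Adgre1 (1.61 to 1.96 against 11.2 to 13.4 FPKM), Fcgr3 and Fcgr1 were higher in every one, and Spi1 overlapped. The 10 markers of T, B, epithelial, fibroblast and endothelial cells summed to at most 0.501 FPKM in PBS libraries and to 1.32 to 1.77 FPKM in nanoparticle libraries, with Krt18 at 0 throughout. The part of these shifts in the results was not tested, and in bulk RNA fewer cells of a type and less RNA per cell cannot be told apart.

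USP transcripts moved in both directions after the particles. On the log2(FPKM + 1) scale Usp11, Usp35, Usp32, Usp19 and Usp16 showed the largest rises, and Usp10, Usp46, Usp14, Usp7 and Usp39 the largest falls. The order depends on the scale: by the ratio of mean FPKM, Usp53 (1.85) came before Usp19 (1.71) and Usp16 (1.60), and Usp42 (0.669) before Usp7 (0.671) and Usp39 (0.679). Among USP genes with a PBS mean of at least 30 FPKM, Usp14, Usp5, Usp39, Usp7 and Usp10 are the 5 that fell. They were picked for that fall, and together went from 284 to 184 FPKM, as sums of group means. Usp1 (49.0 and 45.3 FPKM) and Usp4 (35.7 and 37.0 FPKM) were also above that level in PBS and made no call. The sum over all 55 genes went from 696 to 643 FPKM.

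Of the 55 genes, 42 averaged 1 FPKM or more over the 6 libraries and were tested with limma on log2(FPKM + 1), with Benjamini-Hochberg adjustment over all 10229 genes tested and a threshold of 0.05. Among them 16 rose, 13 fell and 13 made no call. That is 69.0% called, against 77.2% of all genes tested, with 38.1% higher against 42.7% and 31.0% lower against 34.5%. Without Usp6nl the counts were 16 higher and 12 lower of 41. Median-ratio or upper-quartile scaling of the libraries, which each shifted the median of all genes by -0.11 on the log2 scale, gave 11 higher and 21 lower, so the balance of the family depends on the scaling. Under either of them Usp40, Usp45, Usp1, Usp24, Usp12, Usp15, Usp34 and Usp9x were called lower, and Usp37, Usp33, Usp3, Usp54 and Usp25 lost their call. With them the share of all calls that were higher went from 55.3% to 46.8% and 47.3%. The groups did not overlap at 30 of the 42 genes (71.4%), against 78.8% of all genes tested. The median log2 fold change was -0.06 for the USP genes and 0.08 for all genes tested, and the USP values ran from -0.93 to 1.43. An absolute log2 fold change of 1 or more was passed upward by 1 USP gene, Usp11, against 11.4% of all genes. Downward 0 USP genes passed it, against 6.29%. These counts depend on the setting. Usp35 (1.63) and Usp46 (-1.11) also passed it with a pseudocount of 0.1 FPKM. Usp10 and Usp46 passed it downward under median-ratio (-1.05 and -1.02) and upper-quartile scaling (-1.04 and -1.01). With a pseudocount of 10 FPKM Usp11 was at 0.40.

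**Figure D1:**
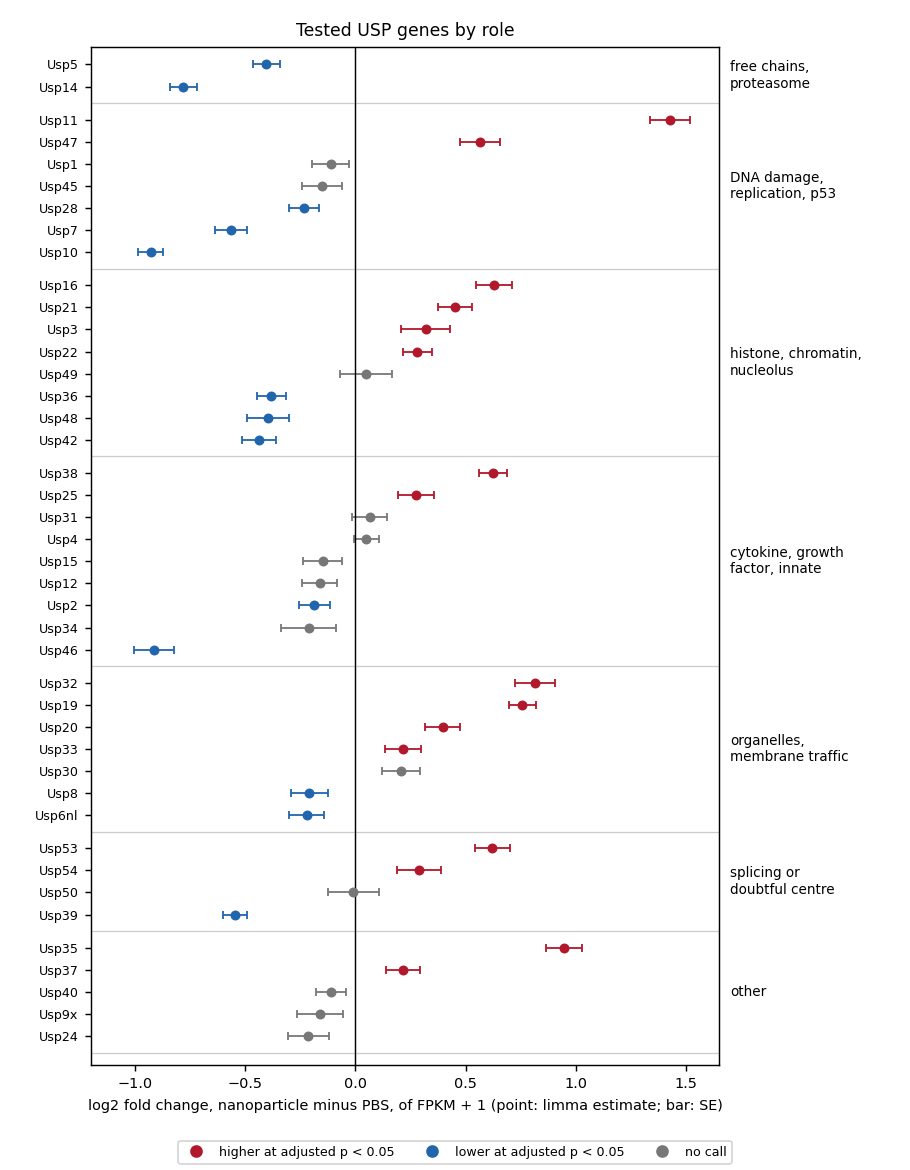
Log2 fold change of FPKM + 1, nanoparticle minus PBS, on the horizontal axis for each of the 42 tested USP genes, grouped by role; points are limma estimates, bars their standard errors, and colours the call. Every role except free chains and the proteasome (2 lower) and the group named other (2 higher, 3 without a call) holds calls in both directions, and Usp11 at 1.43 stands farthest from 0.

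Usp14 and Usp5 deal with ubiquitin that has left or is leaving its target. Usp14 binds the proteasome and trims ubiquitin from proteins docked there, and Usp5 takes apart free chains. Usp14 (ENSMUSG00000047879, chromosome 18, 9993066 to 10045119) was listed at 78.1, 85.2 and 81.2 FPKM in PBS replicates 1 to 3 and at 44.0, 48.6 and 48.4 FPKM in nanoparticle replicates 1 to 3. All nanoparticle values lay below all PBS values, and Usp14, first of the USP genes in PBS, came after Usp5 and Usp19 once the particles were given. It fell by 0.78 ± 0.06 on the log2 scale (SE; limma, Benjamini-Hochberg adjusted p = 1.4e-06). Its annotated exons share 2169 nt with Thoc1, a gene of the opposite strand, and the sources used here do not say whether counting used strand. Thoc1 rose from 13.9 to 17.1 FPKM (log2 fold change 0.28), the opposite way to Usp14.

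Usp5 (ENSMUSG00000038429, chromosome 6, 124815019 to 124829484) stood at 73.1, 71.9 and 67.3 FPKM in PBS and at 56.9, 51.9 and 50.9 FPKM after the particles. The groups did not overlap, and Usp5 fell by 0.41 ± 0.06 (SE; limma, adjusted p = 0.00018). After the particles it was the USP gene with the highest mean, 53.2 ± 3.19 FPKM (SD, n = 3). Usp13, its close relative, was under the filter on low values: 0, 0.00672 and 0 FPKM in PBS, and 0.157, 0.175 and 0.171 FPKM after the particles.

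Of the 7 genes assigned to DNA damage, replication and p53, 2 rose, 3 fell and 2 made no call. The share called was 71.4%, against 77.2% of all genes tested. Usp11, which is linked to repair by homologous recombination, rose, as did Usp47, which acts on a polymerase of base excision repair. Usp10 and Usp7, both of which remove ubiquitin from p53, and Usp28, a partner of the damage sensor protein Trp53bp1, fell.

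Usp11 (ENSMUSG00000031066, chromosome X, 20703906 to 20720539) was at 0.900, 1.29 and 1.11 FPKM in PBS and at 4.84, 4.36 and 4.70 FPKM after the particles. The lowest nanoparticle library was above the highest PBS library by more than the whole spread within either group. The log2 fold change was 1.43 ± 0.09 (SE; limma, adjusted p = 3.9e-07), and the ratio of mean FPKM was 4.21. Usp47 was at 10.9, 10.1 and 11.3 FPKM in PBS and 15.3, 15.3 and 19.1 FPKM after the particles, with nanoparticle replicate 3 the highest, and rose by 0.57 ± 0.09 (SE; limma, adjusted p = 0.00028).

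Usp10 (ENSMUSG00000031826, chromosome 8, 119910360 to 119957560) was at 34.1, 33.6 and 33.8 FPKM in PBS, a spread of under 1 FPKM, and at 18.1, 17.02 and 16.8 FPKM after the particles. It fell by 0.93 ± 0.06 (SE; limma, adjusted p = 2.5e-07), to 0.512 of its PBS mean. G3bp1, the stress granule protein that binds Usp10, also fell, from 86.8 to 55.9 FPKM (log2 fold change -0.63).

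Usp7 (ENSMUSG00000022710, chromosome 16, 8689595 to 8792308), which also keeps the p53 ligase Mdm2 stable, was at 43.9, 42.7 and 45.6 FPKM in PBS and at 27.5, 28.4 and 32.8 FPKM after the particles. Replicate 3 was the highest in both groups, and the groups did not overlap. Usp7 fell by 0.56 ± 0.07 (SE; limma, adjusted p = 5.4e-05). Usp28 fell from 8.17 ± 0.119 to 6.80 ± 0.333 FPKM (SD, n = 3), a log2 fold change of -0.23.

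Usp1 (ENSMUSG00000028560, chromosome 4, 98923810 to 98935543) removes ubiquitin from Fancd2 and from the replication clamp PCNA together with its activator Wdr48. It was at 45.8, 48.2 and 53.1 FPKM in PBS and at 43.2, 41.8 and 51.0 FPKM after the particles, so the groups overlapped through nanoparticle replicate 3. The log2 fold change was -0.11 with a 95% interval of -0.30 to 0.08 and no call (limma, adjusted p = 0.25). It was called lower without nanoparticle replicate 3 (log2 fold change -0.20, limma adjusted p = 0.023) and under both other scalings. Of its 50-nt windows 22.8% also occur in Gm5841. Wdr48 fell from 16.4 to 13.8 FPKM (log2 fold change -0.23). Usp45, an enzyme acting on the repair nuclease subunit Ercc1, had means of 13.7 and 12.2 FPKM and no call, but was called lower with the replicate number as a block (limma, adjusted p = 0.031).

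**Figure D2:**
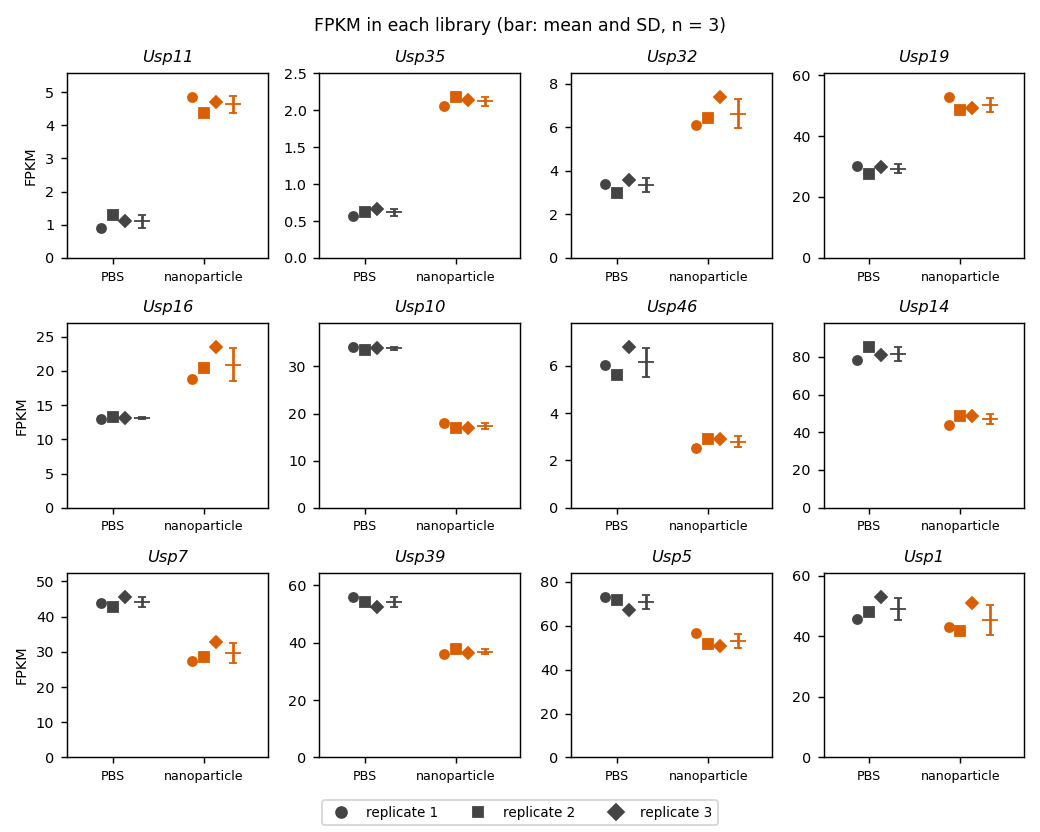
FPKM on the vertical axis (from 0, with its own scale in each panel) in each PBS and nanoparticle library for 12 USP genes; marker shapes give the replicate number and the bars the mean and SD of 3 libraries. The groups are apart for 11 of the genes, from Usp11 at 0.900 to 1.29 against 4.36 to 4.84 FPKM down to Usp5, and overlap for Usp1.

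The group named histone, chromatin and nucleolus had 8 of its 11 genes tested, of which 4 rose, 3 fell and 1, Usp49, made no call. Of those tested 87.5% were called, against 77.2% of all genes. The 4 that rose, Usp16, Usp21, Usp3 and Usp22, remove ubiquitin from histones: Usp16, Usp21 and Usp3 act on histone H2A, and Usp22 is the protease of the SAGA coactivator complex and acts on histone H2B. The 3 that fell were Usp36, a nucleolar enzyme, Usp42 and Usp48. All belong to the same list. Action on histones is named here only for the 4 that rose, and that of the 3 that fell and of Usp49 was not compared. A tie between direction and action on histones was not tested.

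Usp16 (ENSMUSG00000025616, chromosome 16, 87454703 to 87483517) was at 13.0, 13.2 and 13.1 FPKM in PBS and 18.8, 20.5 and 23.5 FPKM after the particles. The nanoparticle libraries were all higher and more spread (SD 2.38 against 0.0870 FPKM). Usp16 rose by 0.63 ± 0.08 (SE; limma, adjusted p = 5.3e-05). Its exons share 192 nt with Cct8 on the opposite strand, which was at 217 to 230 FPKM in PBS and 194 to 221 FPKM after the particles.

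Usp21 rose from 18.5 ± 1.62 to 25.6 ± 1.60 FPKM (SD, n = 3) and Usp22 from 10.9 ± 0.123 to 13.4 ± 0.741 FPKM, with no overlap of the groups at either gene. Usp3 rose from 11.6 to 14.9 FPKM, but its nanoparticle libraries were at 13.8, 18.1 and 12.7 FPKM, and without the second of them the call was lost (limma, adjusted p = 0.072). It was also lost without PBS replicate 1 or PBS replicate 2 (adjusted p = 0.061 and 0.060, limma). Eny2 and Atxn7, subunits of the module in which Usp22 works, rose by 0.59 and 0.66 on the log2 scale, while Atxn7l3 (20.6 and 21.8 FPKM), Atxn7l1 (18.6 and 19.3 FPKM) and Atxn7l2 (5.23 and 5.38 FPKM) made no call.

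Usp36 fell from 10.3 ± 0.352 to 7.65 ± 0.171 FPKM (SD, n = 3), Usp42 from 3.72 ± 0.116 to 2.49 ± 0.142 FPKM and Usp48 from 12.4 ± 0.581 to 9.21 ± 1.31 FPKM. Their log2 fold changes were -0.38, -0.44 and -0.40, and none of them had overlapping groups. Usp49 had means of 1.68 and 1.76 FPKM, and 52.3% of its 50-nt windows also occur in other genes, chiefly Gm20517.

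The remaining 3 genes of this group were under the filter on low values. Usp27x, which can take the place of Usp22 beside Atxn7l3 and Eny2, was at 0.290, 0.2001 and 0.332 FPKM in PBS and at 1.13, 0.796 and 0.830 FPKM after the particles, a ratio of means of 3.35. Usp51, which can do the same, was listed above 0 only in PBS replicate 2 (0.0350 FPKM). Usp44 was at 0 in PBS and in 1 nanoparticle library, and at 0.0214 and 0.0485 FPKM in the others.

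In the group named cytokine, growth factor and innate signalling, 2 of 9 genes rose, 2 fell and 5 made no call. Usp38 and Usp25, which are both known as regulators of innate immune signalling, rose. Usp46, which works with Wdr48 and Wdr20, and Usp2 fell. The share called, 44.4%, compares with 77.2% of all genes tested, and it depends on the setting. Under median-ratio or upper-quartile scaling Usp12, Usp15 and Usp34 were called lower and Usp25 lost its call. With the replicate number as a block Usp12 and Usp34 were added.

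Usp46 (ENSMUSG00000054814, chromosome 5, 73998453 to 74068431) was at 6.04, 5.59 and 6.79 FPKM in PBS and 2.51, 2.92 and 2.92 FPKM after the particles. No nanoparticle library reached the lowest PBS library. It fell by 0.91 ± 0.09 (SE; limma, adjusted p = 7.8e-06), and its ratio of means, 0.454, was the lowest among the 42 tested USP genes. Usp12, its close relative and also a partner of Wdr48 and Wdr20, had means of 8.14 and 7.18 FPKM and no call, and was called lower with the replicate number as a block (limma, adjusted p = 0.031). Wdr20 rose from 10.4 to 13.7 FPKM (log2 fold change 0.36).

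Usp38 was at 7.93, 7.69 and 7.90 FPKM in PBS and at 12.3, 12.5 and 13.1 FPKM after the particles, with tight and separate groups, and rose by 0.63 ± 0.06 (SE; limma, adjusted p = 1.0e-05). Of its 50-nt windows 24.4% also occur in other genes, chiefly the antisense Gm9725. Usp25 rose from 20.8 ± 1.17 to 25.5 ± 2.83 FPKM (SD, n = 3; log2 fold change 0.28), and that call was lost under median-ratio and upper-quartile scaling (limma, adjusted p = 0.096 and 0.11). Usp2 fell from 8.11 ± 0.271 to 7.01 ± 0.332 FPKM, a call lost when either PBS replicate 1, 2 or 3 or nanoparticle replicate 2 or 3 was left out (limma, adjusted p = 0.055 to 0.11).

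Usp4 and Usp15, which act on receptors and Smad proteins of the TGF-beta pathway, made no call, with means of 35.7 and 37.0 FPKM for Usp4 and 27.6 and 24.9 FPKM for Usp15. The 95% interval of the log2 fold change was -0.08 to 0.18 for Usp4 and -0.35 to 0.05 for Usp15. Usp31 was at means of 4.82 and 5.09 FPKM. Usp34, which acts on axin in the Wnt pathway, was at means of 9.18 and 7.87 FPKM, made no call, and was called lower with the replicate number as a block (limma, adjusted p = 0.040). Usp34 shares 16.8% of its 50-nt windows with Ahsa2 on the opposite strand, which rose from 8.92 to 14.8 FPKM.

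Among the 7 genes of organelles and membrane traffic 4 rose, 2 fell and 1 made no call. The share called was 85.7%, against 77.2% of all genes tested. Usp32, which acts on a Rab protein of late endosomes, Usp19, which is anchored in the endoplasmic reticulum, and the closely related Usp20 and Usp33 rose. Usp8, which acts on endocytosed receptors, and Usp6nl fell. Usp30, the enzyme of the outer mitochondrial membrane, made no call.

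Usp19 (ENSMUSG00000006676, chromosome 9, 108490602 to 108502337) was at 30.3, 27.6 and 29.9 FPKM in PBS and 52.7, 48.5 and 49.2 FPKM after the particles. Every nanoparticle library was above every PBS library, and while 7 USP genes had a higher mean than Usp19 in PBS, only Usp5 did after the particles. It rose by 0.76 ± 0.06 (SE; limma, adjusted p = 1.9e-06). It was the single gene to rise among the 7 USP genes that averaged 30 FPKM or more over the 6 libraries.

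Usp32 (ENSMUSG00000000804, chromosome 11, 84984442 to 85140161) was at 3.41, 2.98 and 3.59 FPKM in PBS and 6.08, 6.42 and 7.37 FPKM after the particles. The groups were apart, with replicate 3 the highest in each. The log2 fold change was 0.81 ± 0.09 (SE; limma, adjusted p = 2.1e-05) and the ratio of means 1.99.

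Usp20 rose from 5.38 ± 0.369 to 7.40 ± 0.459 FPKM (SD, n = 3; log2 fold change 0.40) and Usp33 from 7.99 ± 0.372 to 9.46 ± 0.977 FPKM (0.22). The Usp33 call was lost when any 1 of the 6 libraries except nanoparticle replicate 2 was left out (limma, adjusted p = 0.052 to 0.12), and 38.9% of its 50-nt windows occur in other genes. Usp8 fell from 24.7 ± 1.46 to 21.3 ± 2.51 FPKM (log2 fold change -0.21, limma adjusted p = 0.046), although nanoparticle replicate 3, at 24.2 FPKM, lay within the PBS range. Its call was lost without PBS replicate 1 or 3 and without nanoparticle replicate 1 or 2 (limma, adjusted p = 0.11 to 0.15). The endosomal sorting genes Stam2 and Stam, whose products bind Usp8, rose from 12.4 to 32.7 FPKM and from 4.79 to 7.36 FPKM, and Hgs rose from 21.02 to 40.5 FPKM. Usp30 had means of 6.30 and 7.45 FPKM, separate groups and no call (limma, adjusted p = 0.052), and was called higher with the replicate number as a block (limma, adjusted p = 0.042). Usp6nl fell from 3.55 to 2.90 FPKM, a call lost without PBS replicate 2 or 3 or nanoparticle replicate 1 or 2 (limma, adjusted p = 0.067 to 0.083).

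A group of 4 genes encodes USP-fold proteins that act in splicing or whose catalytic centre is incomplete or doubtful. Usp39, a spliceosome protein without an intact protease centre, fell. Usp53 and Usp54 rose, and Usp50 made no call, with means of 1.57 and 1.56 FPKM. Of the 4 genes 75.0% were called, against 77.2% of all genes tested.

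Usp39 (ENSMUSG00000056305, chromosome 6, 72318678 to 72345184) was at 56.0, 54.2 and 52.4 FPKM in PBS and 36.2, 37.8 and 36.3 FPKM after the particles. The nanoparticle libraries lay within 2 FPKM of each other and below every PBS library. It fell by 0.55 ± 0.05 (SE; limma, adjusted p = 7.4e-06). Usp53, which is associated with cell junctions, rose from 1.74 ± 0.112 to 3.22 ± 0.144 FPKM (SD, n = 3; log2 fold change 0.62). Usp54 rose from 1.77 ± 0.171 to 2.40 ± 0.356 FPKM, a call lost without PBS replicate 1 or 2 or nanoparticle replicate 3 and under both other scalings (limma, adjusted p = 0.056 to 0.084).

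The last group, of 14 genes with other or less settled roles, had 5 tested, of which 2 rose and 3 made no call. The share called was below the 77.2% of all genes tested. No gene of the group was called lower, against 34.5% of all genes tested. Usp35 (ENSMUSG00000035713, chromosome 7, 97309380 to 97332020), which has been tied to mitosis and to mitochondrial quality control, was at 0.565, 0.627 and 0.665 FPKM in PBS and 2.05, 2.18 and 2.14 FPKM after the particles. Both groups were tight and far apart. The log2 fold change was 0.95 ± 0.08 (SE; limma, adjusted p = 2.7e-06), and the ratio of mean FPKM, 3.43, was larger than that fold change gives because the pseudocount of 1 FPKM weighs on low values. Usp37, which acts on a cyclin, rose from 5.41 to 6.45 FPKM, and its call was lost without PBS replicate 1 or 2 or nanoparticle replicate 2 or 3 and under both other scalings (limma, adjusted p = 0.058 to 0.21). Usp40, Usp24 and Usp9x had means of 5.95 and 5.44, 10.8 and 9.20, and 10.1 and 8.93 FPKM. Usp24 and Usp9x were called lower with the replicate number as a block (limma, adjusted p = 0.020 and 0.048).

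The 9 untested genes of that group were Usp17la, Usp17lb, Usp17lc, Usp17ld, Usp17le, Usp29, Usp43, Usp26 and Usp9y. Together with the 4 untested genes described above, Usp13, Usp27x, Usp44 and Usp51, they make up the 13 USP genes under the filter. Usp17l genes are rodent members of a cytokine-inducible USP family known as DUBs. Usp17le was listed at 0 in every PBS library and at 1.27, 1.34 and 1.83 FPKM after the particles. Usp17la reached 0.292, 0.388 and 0.120 FPKM, and the remaining Usp17l genes between 0.0668 and 0.241 FPKM, in nanoparticle libraries. The sum over the 5 genes was 0 in each PBS library and 2.20, 2.09 and 2.49 FPKM in nanoparticle libraries. With PBS at 0, no ratio was formed.

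Of the USP genes, 10 were listed at 0 in every PBS library, and 6 of these, the 5 Usp17l genes and Usp29, were above 0 in every nanoparticle library. Among all genes listed at 0 in every PBS library 13.4% were. Usp29 reached 0.0213 FPKM at most, and Usp43 0.0601 FPKM with 1 nanoparticle library at 0. Usp26, a testis gene, and Usp9y were at 0 in all 6 libraries. The Usp17l transcripts share 20.4% to 51.1% of their 50-nt windows with other genes, largely with each other, so the split of fragments between them is uncertain.

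**Figure D3:**
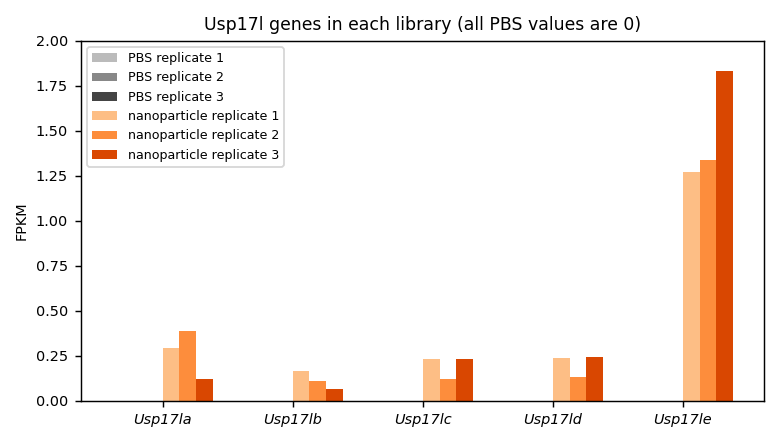
FPKM on the vertical axis (from 0) of the 5 Usp17l genes in each library, with bars coloured by library. No bar appears for PBS because all PBS values are 0, and Usp17le, at 1.27 to 1.83 FPKM, stands above the others, which stay at or below 0.388 FPKM.

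Grouped by the mean over all 6 libraries, at 30 FPKM or more 1 of 7 USP genes rose and 4 fell, where 41.1% of all genes at that level rose and 38.7% fell. From 10 to 30 FPKM 7 of 12 USP genes rose and 3 fell, against 42.8% and 35.7% of all genes, and below 10 FPKM 8 of 23 rose and 6 fell, against 43.8% and 30.3%. These are counts over few genes, and the difference between levels was not tested.

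The summed FPKM of the 55 genes was 696 ± 12.1 in PBS and 643 ± 24.8 after the particles (SD, n = 3), with each nanoparticle library below each PBS library. In PBS the 5 highest genes, led by Usp14 at 81.5 FPKM, held 43.0% of the summed group means, and after the particles the 5 highest, led by Usp5 at 53.2 FPKM, held 36.2%. Usp5, Usp19, Usp14 and Usp1, in this order, had means between 53.2 and 45.3 FPKM after the particles, and each overlapped its neighbour in that order in its library values. Of the 55 genes, 43 to 45 were above 0 in a PBS library and 50 to 52 in a nanoparticle library.

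Close relatives within the family were compared as the log2 ratio of FPKM + 1 between both genes in each library, over 13 pairs. With 3 against 3 libraries the smallest two-sided p of the exact permutation test is 0.1, so no pair could pass 0.05. The 11 pairs whose ratios did not overlap between groups all had this p (adjusted p = 0.118, Benjamini-Hochberg over the 13 pairs, exact permutation test). The share for pairs of unrelated genes was not computed, so the count of 11 is not specific to relatives. Of all single genes tested, 78.8% had groups that did not overlap. The ratio of Usp11 to Usp4 was -4.32, -3.92 and -4.16 in PBS and -2.72, -2.80 and -2.74 after the particles. The ratio of Usp47 to Usp7 went from -1.94 ± 0.03 to -0.80 ± 0.05 (SD, n = 3), with 1 gene higher and 1 lower. Usp46 moved against Usp12 by -0.75, Usp16 against Usp45 by 0.78, and Usp25 against Usp28 by 0.51, all with ratios that did not overlap between groups.

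Overlapping ratios were found for 2 of the 13 pairs, Usp20 with Usp33, which both rose, and Usp36 with Usp42, which both fell. Their ratios differed between groups by 0.18 (exact permutation p = 0.4, adjusted p = 0.4) and 0.05 (exact permutation p = 0.3, adjusted p = 0.325). Usp27x against Usp22 and Usp13 against Usp5, in which 1 gene lay under the filter, moved by 0.31 and 0.63, again without overlap. Most of the shift between Usp13 and Usp5 was the fall of Usp5 (0.41 on the log2 scale). Usp13, near 0 FPKM in PBS, rose by 0.22.

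Replicate 3 stood apart at long USP transcripts in both groups. Across the 42 tested USP genes, the value of replicate 3 minus the mean of replicates 1 and 2, on log2(FPKM + 1), had a Pearson correlation with log2 transcript length of 0.69 in PBS and 0.50 in nanoparticle libraries. Over 10207 tested genes with a length it was 0.30 and 0.43. These correlations are across genes of the same libraries, which are not independent replicates. Usp34, with a longest annotated transcript of 12200 nt, was 0.18 higher in PBS replicate 3 and 0.46 higher in nanoparticle replicate 3, while Usp39, at 2244 nt, was lower in both by 0.07 and 0.03. Usp50, at 2129 nt, was lower by 0.16 and 0.35.

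**Figure D4:**
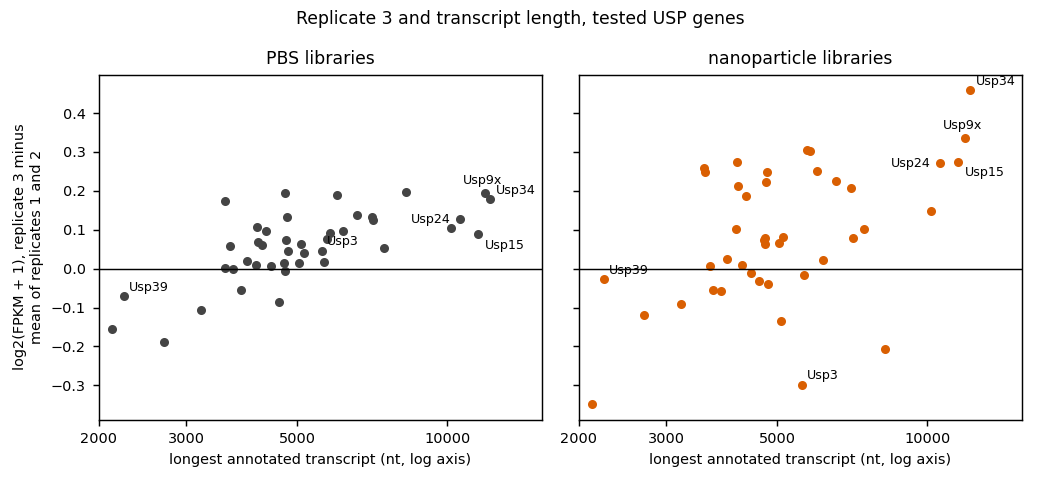
Each point is 1 of the 42 tested USP genes, with the length of its longest annotated transcript in nt (log axis) against the log2(FPKM + 1) of replicate 3 minus the mean of replicates 1 and 2, in PBS (left) and nanoparticle libraries (right). Points climb from left to right in both panels (Pearson correlation 0.69 and 0.50), with Usp34 at 0.46 in the right panel.

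The fold changes themselves had a correlation of -0.01 with log2 transcript length over the 42 genes. Of the 9 USP genes with a transcript of at least 7000 nt, 2 rose, 1 fell and 6 made no call, and of the 33 shorter ones 14 rose, 12 fell and 7 made no call. Among all tested genes with a length, 262 of 838 rose, 316 fell and 260 made no call in the longer class, and 4094 of 9369 rose and 3210 fell in the shorter. Without nanoparticle replicate 3, Usp34, Usp9x, Usp24, Usp15, Usp45, Usp12 and Usp1 were called lower, Usp54, Usp37, Usp33 and Usp2 lost their call, and the counts were 13 higher and 19 lower. The part of transcript length in these calls was not tested.

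Of 38 genes of the OTU, UCH, MJD, JAMM, MINDY and ZUP families and of the unnumbered USP-fold genes, 33 were tested, with 20 higher, 3 lower and 10 without a call, or 17 higher and 4 lower under either other scaling. That is 60.6% higher and 9.09% lower, against 42.7% and 34.5% of all genes tested. Their median log2 fold change was 0.43, against -0.06 for the USP genes and 0.08 for all genes tested, and the difference between the families was not tested. OTU genes rose at 10 of 12, among them Tnfaip3 (A20), a brake on NF-kB signalling, from 1.58 ± 0.138 to 9.86 ± 1.67 FPKM (SD, n = 3) and Otub2 from 2.84 to 7.17 FPKM. Otud5 rose from 31.8 to 56.4 FPKM. The MJD genes rose at 3 of 3, with Josd2 from 31.9 to 58.4 FPKM and Josd1 from 30.7 to 42.7 FPKM, and the MINDY and ZUP genes at 4 of 4, with Mindy3 from 22.4 to 37.4 FPKM and Zup1 from 3.61 to 7.17 FPKM. Of 7 JAMM genes 3 rose and 1 fell: Mysm1 went from 2.69 to 5.23 FPKM, and Mpnd fell by 1.12 on the log2 scale. None of the 4 UCH genes tested was called, with Bap1 at 25.9 and 27.3 FPKM and Uchl5, a partner of Usp14 at the proteasome, at 76.2 and 79.6 FPKM. None of the 3 unnumbered USP-fold genes was called, with Uspl1 at 12.0 and 12.9 FPKM and Cyld, a brake on NF-kB signalling, at 8.04 and 7.98 FPKM.

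Among the genes that supply ubiquitin, the precursor gene Ubb rose from 328 ± 11.0 to 845 ± 68.4 FPKM (SD, n = 3; log2 fold change 1.36). Of both activating enzyme genes, Uba1 rose from 136 to 150.1 FPKM and Uba6, at 8.57 and 9.01 FPKM, made no call. Of 14 genes for partners of USP enzymes 6 rose, 2 fell and 6 made no call, so 57.1% were called, against 77.2% of all genes tested. Psmd2, a subunit of the regulatory particle of the proteasome, was at 195 and 198 FPKM and made no call.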

How the data were processed

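The members and gene lists were chosen with earlier results of these data known. Messenger RNA of 6 RAW264.7 libraries was measured (3 PBS, 3 nanoparticle), and libraries were grouped by title. The deposited table holds 1 FPKM column per library. The file header names no unit, and FPKM was inferred from the values. Per the submitters' processing notes, reads were handled with STAR and featureCounts (no versions) on GRCm38, also written mm10. The sources used here give neither strand use in counting nor sequencing depth. The column of PBS replicate 1 carries a suffix whose meaning is not given. Of 22614 rows, 509 without an Ensembl gene identifier (0.427% to 0.497% of the FPKM) were left out. Coordinates and transcript lengths came from GENCODE M21, where 21995 of 22105 identifiers matched, and promoters from RefSeq (GRCm38.p6).

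Genes averaging 1 FPKM or more were tested on log2(FPKM + 1) with limma 3.58.1 (R 4.3.3), with an intensity trend and a treatment term alone; two-sided p-values were adjusted by Benjamini-Hochberg over 10229 genes and called at 0.05. Fold changes on this scale understate the change of low genes. Fold changes are given with SE, means with SD (n = 3). Precision is limited by 3 libraries a group. The fit was tested on simulated data. Named with full values were USP genes past the threshold with an absolute log2 fold change of at least 1, the 5 largest changes in each direction and the 3 highest means, and, of each other list, the 2 smallest p-values and changes of at least 1. A gene that the rule selects is not reported here. Usp38 and Usp47, the partner genes named beside USP genes, and genes named for an overlap were added after their values were seen. Pairs of related genes were compared with an exact permutation test (scipy 1.17.1). Shared sequence was counted as 50-nt windows of the longest transcript that also occur in a transcript of another gene. Tables were read with pandas 2.3.3 and plots drawn with matplotlib 3.10.9.

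Alternatives were other pseudocounts, filters and scalings, no intensity trend, a replicate block and leaving out each library. Replicate numbers come from the labels. Deviations from the group mean correlated between PBS and nanoparticle libraries of the same number at 0.130, 0.115 and 0.354, all over 0.1. The numbers were therefore taken to pair the libraries in the block alternative only, and the main calls use no pairing. The pairing is an uncertain inference from the values. Nanoparticle replicate 1 correlated slightly more with PBS replicate 2 (0.134), and replicate 3 stood apart at long transcripts in both groups.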

Additional observations from a re-analysis of the deposited data

How the results depend on the processing

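Of the USP genes, 11 of the 16 higher and 10 of the 13 lower calls were kept under every alternative in which the gene was tested, and no called gene changed direction. The exceptions were Usp37, Usp33, Usp3, Usp54 and Usp25 among the higher and Usp6nl, Usp8 and Usp2 among the lower. Median-ratio and upper-quartile scaling each gave 21 lower USP genes in place of 13, with median log2 fold changes of -0.15 and -0.15 in place of -0.06. With no filter on low values the USP median was 0.048 over 53 genes, and with a mean of at least 5 FPKM it was -0.15 over 31 genes, so fewer or more genes entered it. Pseudocounts of 0.1 and 10 FPKM changed no call of a USP gene. Leaving out 1 library gave 12 to 15 higher and 10 to 19 lower USP genes, with medians of -0.08 to -0.06, and 18 to 21 higher and 3 to 4 lower genes among the other deubiquitinases. With the replicate block, 17 USP genes were higher and 18 lower; the block added 6 calls, given beside their genes, and changed no other call of a USP gene. The sources used here give no depth, so values listed at 0 carry no limit.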

Other observations

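The Usp17l genes lie between 103249737 and 104862667 on chromosome 7 (GRCm38), among olfactory receptor and Trim genes. Within 500000 nt of this span the table held 136 other genes, of which 126 were listed at 0 in every PBS library, and 0 of those 126 were above 0 in every nanoparticle library. Of 116 olfactory receptor genes there, 1, Or51v8, was above 0 in every nanoparticle library, at 0.00113 to 0.00797 FPKM, and it was also listed in PBS replicates 2 and 3 (0.00676 and 0.00179 FPKM). The interferon-inducible Trim genes of the same stretch were listed higher in nanoparticle than in PBS libraries, for example Trim30a at 6.84 to 8.24 FPKM in PBS and 41.0 to 49.5 FPKM after the particles (log2 fold change 2.41, limma).

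Gm49380, which shares 200 nt of exon with Usp2 on the opposite strand, was listed at 14.2 FPKM in PBS replicate 1 and at 0 to 0.438 FPKM in the other libraries, while Usp2 ran from 7.87 to 8.40 FPKM over the PBS libraries. The ubiquitin precursor Rps27a was listed at 389, 1042 and 1008 FPKM in PBS and at 549, 539.9 and 266 FPKM in nanoparticle libraries, a spread within groups that left its difference without a call.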
